A study of Solanum lycopersicum with 9 samples.

Results

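The middle segment of the tomato chromosomes was examined in peak lists of 4 histone marks in leaves of ddm1 and wild-type (WT) plants. Each of the 12 numbered chromosomes was taken to extend to the last peak end found on it in any list and was cut by length into 3 equal segments, and a peak belonged to the segment that held its midpoint. The middle segments summed to 267 Mb of 802 Mb and held 65933 of 266074 peaks (24.8%, against 33.3% of the length). Choosing them needed positions only and no peak height or genotype.

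Chromatin immunoprecipitation followed by sequencing (ChIP-seq) had been done on plants of cultivar M82 at an age of 1 month, from which the fourth leaf was taken. The ddm1 plants carried mutations in both tomato DDM1 genes, Slddm1a and Slddm1b. They were represented by 5 libraries (2 for H3K27me3, 1 each for H3K9ac, H3K27me1 and H3K9me2), and WT M82 plants by 4 libraries, 1 for each mark. The mutation was present in the whole plant and the leaf is a mixture of cell types, so a change in all cells and a change in some of them cannot be told apart.

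Tomato chromosomes are built of gene-rich distal arms around a long, gene-poor pericentromere filled with transposable elements. DDM1 is a nucleosome remodeller that plants need to keep DNA methylation in such heterochromatin. The marks H3K9me2 and H3K27me1 label constitutive heterochromatin, H3K27me3 is set by Polycomb complexes and marks silent genes, and H3K9ac is found at active genes. Chromosome 2 differs in shape from the others: its centromere lies near one end, beside the nucleolus organiser, so that the middle of its length is not the middle of its heterochromatin.

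Before the results, 3 features of the lists need stating. The second ddm1 H3K27me3 list is labelled as the mutant, but its peaks and its deposit carry a WT name, so H3K27me3 values are given here for each replicate. That list also held peaks over 10 kb, of which 863 of 2553 (33.8%) lay in the middle segment, close to the segment's share of the length, while no other list held any peak of that length. Sequencing depth is unknown. The background that MACS set against the peaks, solved from their fold and p-values, was 7.02 reads per position in ddm1 and 6.97 in WT for H3K9ac, and 6.81 in ddm1 and 6.98 in WT for H3K27me1. No such level was usable for H3K27me3 or H3K9me2. Because nearly every group was 1 library, no test of genotype was possible: the 95% intervals given are Wilson intervals for shares, Newcombe intervals for differences and exact binomial intervals for ratios of counts, and all of them cover counting error only, with peaks taken as independent. Variation between plants is not in them.

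WT chromatin of the middle segment was poor in H3K9ac and H3K27me3 peaks and rich in the constitutive marks. H3K9ac peaks stood at 11.7 per Mb in the middle segment and at 73.9 per Mb in the outer segments, and H3K27me3 peaks at 18.0 and 57.8 per Mb. The constitutive marks were denser in the middle, with 14.3 against 11.1 peaks per Mb for H3K9me2 and 9.22 against 6.69 for H3K27me1. This was not particular to the middle. Between 10% and 30% of the length, H3K9me2 stood at 15.3 to 16.1 peaks per Mb and H3K27me1 at 9.40 to 10.9. In the last 5% they stood at 2.07 and 1.55. On every one of the 12 chromosomes, the middle segment held less than 33.3% of the WT H3K9ac peaks (4.00% to 17.4%) and more than 33.3% of the WT H3K9me2 peaks (33.6% to 46.8%). No centromere map or gene annotation was used here, so which part of each segment is pericentromeric was not tested.

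In ddm1, the middle segment held many more H3K9ac and H3K27me3 peaks than in WT and fewer H3K9me2 peaks. The H3K9ac and H3K9me2 differences were larger there than in the outer segments. For H3K27me3 the outer segments went the other way in replicate 1, with 0.737 times the WT peak number. In replicate 2 they had 0.981 times the WT peak number and 2.35 times the WT covered length. H3K9ac peaks of the middle segment numbered 20394 in ddm1 and 3130 in WT, a ratio of 6.52 (6.27 to 6.77). In the outer segments the ratio was 1.42 (1.40 to 1.44). As a share of the list, the middle segment held 26.7% of H3K9ac peaks in ddm1 and 7.34% in WT, a difference of 19.3 points (18.9 to 19.7). With lists of equal size, made by keeping the strongest peaks of the longer one, the H3K9ac ratio in the middle was 2.98. Without chromosome 2 it was 8.37.

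H3K27me3 peaks were also more numerous in ddm1, in both libraries. Replicate 1 of ddm1 had 9708 peaks in the middle segment, replicate 2 had 16017, and WT had 4818. The ratios to WT were 2.01 (1.95 to 2.09) and 3.32 (3.22 to 3.43), a mean of 2.67 ± 0.926 (SD, n = 2), while in the outer segments they were 0.737 and 0.981. The shares were 29.9% in replicate 1, 34.6% in replicate 2 and 13.5% in WT. The share was thus higher in ddm1 by 16.4 points (15.8 to 17.0) in replicate 1 and by 21.1 points (20.5 to 21.6) in replicate 2.

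In covered length, the H3K27me3 replicates parted. Replicate 1 covered 6.32 Mb of the middle segment, replicate 2 covered 42.2 Mb and WT covered 6.31 Mb, which makes 1.00 times the WT length for replicate 1 and 6.70 times for replicate 2. The median peak was 470 bp in replicate 1, 864 bp in replicate 2 and 1010 bp in WT. Replicate 1 therefore had more but shorter peaks over the same length. Its outer segments covered 0.474 times the WT length, and those of replicate 2 covered 2.35 times. When only peaks with a q of 0.01 or lower were kept, the peak ratio in the middle was 0.998 in replicate 1 and 2.36 in replicate 2, so the larger number of peaks in replicate 1 rested on peaks with a q above 0.01. The share of the middle segment was still higher in ddm1 at that limit, by 11.0 points in replicate 1 and 18.5 points in replicate 2.

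The constitutive marks moved apart from each other in number. H3K27me1 peaks in the middle segment numbered 3328 in ddm1 and 2465 in WT, a ratio of 1.35 (1.28 to 1.42), below the 1.65 (1.59 to 1.72) of the outer segments. Their share was 36.0% in ddm1 and 40.8% in WT, a difference of -4.79 points (-6.37 to -3.22). With lists of equal size the ratio turned to 0.891, so the direction of the H3K27me1 count depended on the length of the list, whereas that of its share did not. H3K9me2 peaks numbered 2262 in ddm1 and 3811 in WT, a ratio of 0.594 (0.563 to 0.625), against 0.856 (0.825 to 0.889) in the outer segments. The H3K9me2 share was 30.7% in ddm1 and 39.0% in WT, a difference of -8.29 points (-9.72 to -6.85). The shortest H3K9me2 peak was 500 bp in ddm1 and 700 bp in WT. With the same shortest length in both lists, the H3K9me2 ratio was 0.302, and among peaks with a q up to 0.01 it was 0.363.

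**Figure D1:**
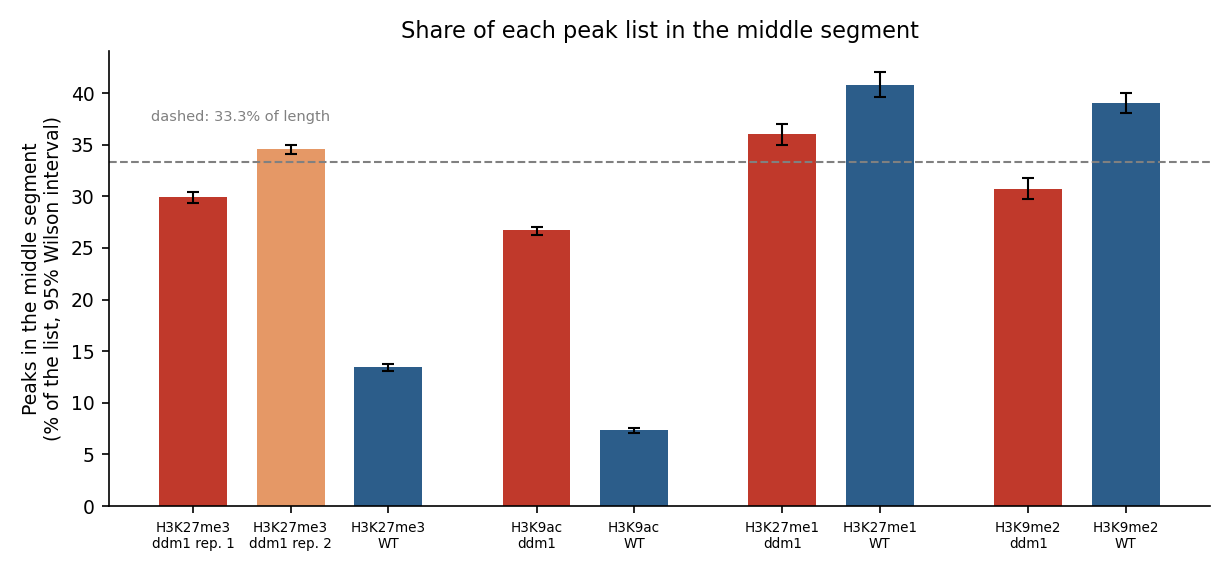
Share of the peaks of each list that lay in the middle segment, in percent, with 95% Wilson intervals; the dashed line is the segment's share of the length, 33.3%. WT H3K9ac (7.34%) and WT H3K27me3 (13.5%) lie far below the line, their ddm1 lists between 26.7% and 34.6%, and the ddm1 lists of H3K27me1 and H3K9me2 lie below their WT lists.

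Along the chromosomes, in bins of 5% of the length, WT H3K9ac formed a basin: density was lowest at 6.23 peaks per Mb between 25% and 30% of the length, stayed at 10.7 or less up to 60%, and reached 201 in the last bin. In ddm1 the lowest bin had 61.3 peaks per Mb and the last bin had 180. In the first bin ddm1 had 139 and WT had 141. At the chromosome ends H3K9ac was therefore similar or lower in ddm1, and the large differences lay inside. The last segment held 43.4% of H3K9ac peaks in ddm1 and 65.8% in WT. Within 1 Mb on either side of the segment borders, 1994 ddm1 H3K9ac peaks lay just inside and 1938 just outside, and in WT 399 lay inside and 452 outside, so no step was seen at the border.

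**Figure D2:**
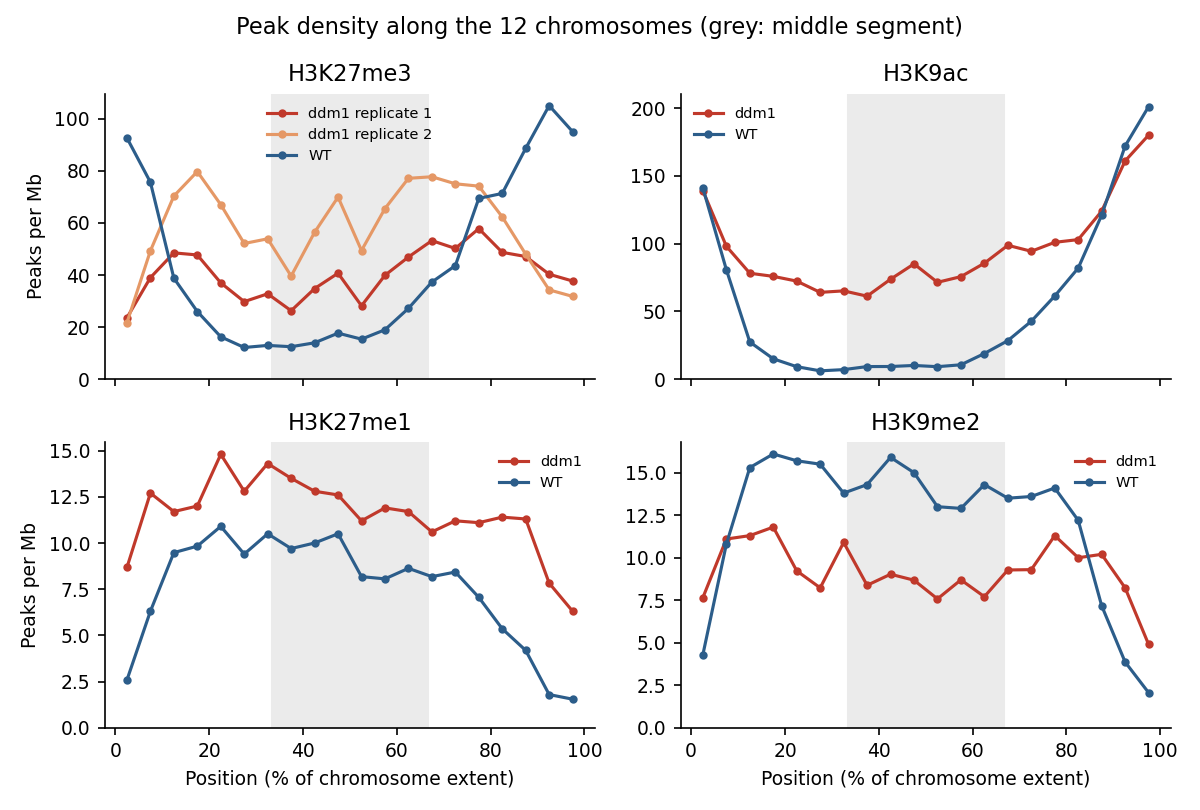
Peaks per Mb in 20 bins along the 12 chromosomes together, one panel a mark, with position as a percentage of chromosome extent; points are single lists and the grey band is the middle segment. WT H3K9ac and H3K27me3 form a basin that spans the grey band, the ddm1 lists fill it, and both ddm1 H3K27me3 lists lie below WT at both ends.

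The new H3K9ac peaks were smaller than those that WT also had. In the middle segment, 18109 of 20394 ddm1 H3K9ac peaks (88.8%, against 46.7% in the outer segments and 57.9% over all chromosomes) shared no base with a WT H3K9ac peak. These had a median length of 320 bp and a median fold enrichment over background of 2.98. The 2285 others had a median of 670 bp and a fold of 4.76. In the opposite direction, 2188 of 3130 WT H3K9ac peaks were overlapped in ddm1. That is 69.9%, against 70.4% in the outer segments, a difference of -0.480 points with an interval of -2.17 to 1.17 (70.3% over all chromosomes). WT H3K9ac peaks in the middle were thus found again about as often as elsewhere within the counting error. The WT peaks overlapped in ddm1 were the large ones, with a median of 770 bp and a fold of 6.46, and the 942 not overlapped had medians of 275 bp and 2.73.

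WT H3K27me3 peaks of the middle segment were found again more often than those of the outer segments at an overlap of 1 bp. Replicate 1 overlapped 39.2% of them in the middle and 31.6% in the outer segments (32.6% over all chromosomes), a difference of 7.65 points (6.18 to 9.13). Replicate 2 overlapped 54.6% in the middle and 36.0% in the outer segments (38.5% over all), a difference of 18.6 points (17.1 to 20.1). Among peaks with a q up to 0.01, the differences were 2.48 points in replicate 1 and 17.3 points in replicate 2, and without peaks over 10 kb that of replicate 2 was 10.2 points. When at least 50% of the WT peak had to be covered, they were 0.347 points in replicate 1 and 16.8 points in replicate 2, so in replicate 1 the size of the difference depended on the limits set. Replicate 1 covered 2.37% of the middle segment and 3.23% of the outer segments, and replicate 2 covered 15.8% and 16.0%. The WT peaks that replicate 1 overlapped had a median length of 1863 bp, against 647 bp for the others, and those that replicate 2 overlapped had 1347 bp, against 706 bp.

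Most H3K27me3 peaks of the mutant in the middle lay outside WT peaks. They were 76.9% in replicate 1, against 51.9% in the outer segments (59.4% over all chromosomes). In replicate 2 they were 88.0%, against 71.8% (77.4% over all). The 2 replicates could be compared directly. In the middle, 8122 of 9708 replicate 1 peaks (83.7%, against 81.5% in the outer segments) overlapped a replicate 2 peak. In turn, 5597 of 16017 replicate 2 peaks (34.9%, against 43.3%) overlapped a replicate 1 peak. Shared bases made up 81.2% of the length of replicate 1 (79.1% in the outer segments) and 12.2% of that of replicate 2 (15.9%). Replicate 1 was thus largely contained in the wider list, in the middle and outside it. The 863 peaks over 10 kb of replicate 2 summed to 18.0 of its 42.2 Mb in the middle segment, against 39.0 of 85.8 Mb in the outer segments, and the longest of the middle spanned 143981 bp. Chromosome 10 held the most of this length (2.54 Mb in 104 peaks) and chromosome 3 the least (0.801 Mb in 39 peaks).

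The constitutive marks were rarely found at the same sites again. Of WT H3K9me2 peaks in the middle segment, 455 of 3811 (11.9%) were overlapped in ddm1, against 18.2% in the outer segments (15.8% over all chromosomes), a difference of -6.28 points (-7.69 to -4.84). Of WT H3K27me1 peaks, 373 of 2465 (15.1%) were overlapped, against 18.2% (17.0% over all), a difference of -3.11 points (-4.99 to -1.20). Both marks therefore kept fewer sites in the middle, although H3K27me1 had more peaks there in ddm1. Outside WT peaks of their own mark lay 88.8% of ddm1 H3K27me1 peaks (88.9% over all) and 79.7% of ddm1 H3K9me2 peaks (78.5% over all), values near those of all chromosomes. No second library of these marks was at hand to give the overlap between repeats of one genotype.

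**Figure D3:**
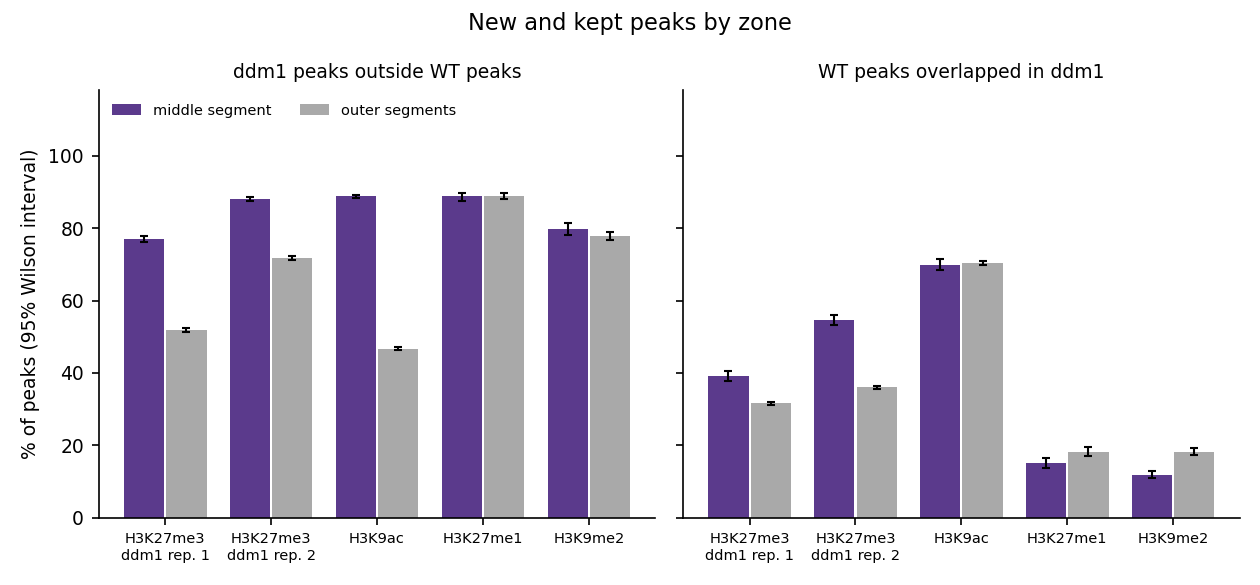
Left, ddm1 peaks outside WT peaks of the same mark, and right, WT peaks overlapped by at least 1 bp in ddm1, in percent of the peaks of the middle segment (purple) and of the outer segments (grey), with 95% Wilson intervals. The gap between segments is widest for new H3K9ac (88.8% and 46.7%), is absent within error for WT H3K9ac found again (69.9% and 70.4%), and has opposite signs for H3K27me3 and H3K9me2 on the right.

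In ddm1, H3K9ac and H3K27me3 were found at some WT heterochromatin sites. For H3K9ac the shares in the middle and outer segments differed by less than the counting error. In WT, no H3K9ac peak overlapped any of the 3811 H3K9me2 peaks of the middle segment, which allows a share of up to 0.0787%. In ddm1, H3K9ac overlapped 594 of these sites (15.6%, against 14.8% in the outer segments and 15.1% over all chromosomes), a difference of 0.761 points (-0.689 to 2.24). Of the 2465 WT H3K27me1 sites, 0 had WT H3K9ac (up to 0.122%) and 330 (13.4%, against 12.9%, and 13.1% over all) had ddm1 H3K9ac. The difference was 0.479 points (-1.24 to 2.24). Both intervals hold 0, and with peaks of a q up to 0.01 the values were 1.85 and 0.613 points. The ddm1 H3K9ac list was itself wider, covering 3.55% of the middle segment, against 0.793% in WT. Whether it met these sites more often than its greater extent would give was not tested.

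For H3K27me3 the 2 replicates gave very different levels. Replicate 1 overlapped 88 WT H3K9me2 sites (2.31%, against 2.20% in the outer segments and 2.24% over all chromosomes), and replicate 2 overlapped 536 (14.1%, against 15.7%, and 15.0% over all). At WT H3K27me1 sites the counts were 116 in replicate 1 (4.71%, against 4.72%, and 4.72% over all) and 516 in replicate 2 (20.9%, against 24.3%, and 22.9% over all). In replicate 1 the middle and outer segments differed by 0.110 points (-0.481 to 0.738) at H3K9me2 sites and by -0.0161 points (-1.09 to 1.10) at H3K27me1 sites, both within counting error. In replicate 2 the share was lower in the middle beyond counting error, by -1.60 points (-3.03 to -0.147) at H3K9me2 sites and by -3.38 points (-5.49 to -1.23) at H3K27me1 sites. Among peaks with a q up to 0.01 the replicate 2 difference turned to 0.408 points at H3K9me2 sites and was -3.07 points at H3K27me1 sites. The 14.1% of H3K9me2 sites overlapped by replicate 2 was below the 15.8% of the segment that this list covered, and the 20.9% of H3K27me1 sites was above it. Replicate 1 covered 2.37%, beside 2.31% of H3K9me2 sites and 4.71% of H3K27me1 sites. A share of sites touched by 1 bp and a share of length are unlike measures, so an excess or a lack was not tested.

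Where H3K9ac was present in ddm1, the original mark was scarcer still. In the middle segment, H3K9me2 was found again at 7 of 594 WT H3K9me2 sites with ddm1 H3K9ac (1.18%, 0.572 to 2.41) and at 448 of 3217 sites without it (13.9%, 12.8 to 15.2). H3K27me1 was found again at 6.06% of its sites with ddm1 H3K9ac and at 16.5% of those without. In the outer segments, H3K9me2 was found again at 14 of 883 such sites with ddm1 H3K9ac, against 18.2% of all outer H3K9me2 sites. For H3K27me1 it was 50 of 462, against 18.2% of all outer H3K27me1 sites. The contrast was therefore not particular to the middle segment. Within the middle segment, it was smaller for H3K27me3 at H3K9me2 sites. At replicate 1 peaks 4.55% of H3K9me2 sites (4 of 88) were found again, against 12.1% elsewhere. At replicate 2 peaks it was 5.04%, against 13.1%. At H3K27me1 sites the intervals overlapped. The difference there was -10.5 points (-13.1 to -7.01) for H3K9ac. For H3K27me3 it was -8.64 (-12.3 to -2.36) in replicate 1 and -6.39 (-9.27 to -3.09) in replicate 2. A large part of the sites had no peak of any mark left: none of the 5 ddm1 lists overlapped 57.3% of WT H3K9me2 sites in the middle, against 51.6% in the outer segments, or 53.4% of WT H3K27me1 sites, against 47.4%.

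Few of the new H3K9ac peaks lay on a WT peak of any mark. Of the 18109 H3K9ac peaks outside WT H3K9ac in the middle segment, 92.4% overlapped no WT peak of any mark, against 87.7% in the outer segments. A WT H3K9me2 peak was at 4.28% of them and a WT H3K27me3 peak at 1.66%, against 4.17% and 6.68% in the outer segments. The lower share with H3K27me3 went with a lower coverage, since WT H3K27me3 covered 2.36% of the middle and 6.82% of the outer segments. WT H3K9me2 covered 1.57% and 1.26%, and WT H3K27me1 covered 0.195% and 0.144%. These WT lists thus filled little of either part, and whether new H3K9ac avoided their peaks was not tested. Within one genotype, WT H3K9ac peaks overlapped WT H3K27me3 more often in the middle (28.6%) than outside it (17.9%). Counted over the other list the order was the opposite, since WT H3K9ac overlapped 16.5% of WT H3K27me3 peaks in the middle and 19.5% outside it, a difference of -3.02 points (-4.13 to -1.86). In ddm1, H3K9ac peaks of the middle overlapped H3K27me3 of replicate 1 at 7.65%, against 7.45% in the outer segments. For replicate 2 it was 34.5%, against 21.2%. Over all H3K9ac peaks, the 2 replicates thus disagreed on whether the segments differed. Among H3K9ac peaks outside WT H3K9ac, the replicate 2 difference, middle minus outer, was within counting error, at 0.550 points (-0.363 to 1.46). That of replicate 1 was -1.13 points (-1.63 to -0.619). Counted over H3K27me3 peaks, the differences were small and of opposite sign. They were -1.71 points (-2.55 to -0.848) in replicate 1 and 1.11 points (0.283 to 1.94) in replicate 2.

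At the scale of 1 Mb, 270 windows lay in the middle segment and 538 outside it. H3K9ac covered more length in ddm1 than in WT in 262 of the 270 (97.0%, against 60.4% of outer windows and 72.6% of all 808), with medians of 36.4 kb in ddm1 and 4.81 kb in WT. H3K9me2 covered less in ddm1 in 258 (95.6%, against 61.7%, and 73.0% of all), with medians of 6.72 kb in ddm1 and 15.5 kb in WT. Both held in 254 windows (94.1%, against 54.5%, and 67.7% of all). The change was therefore spread over nearly the whole segment rather than gathered in a few places. H3K27me3 covered more in 170 windows in replicate 1 (63.0%, against 27.9%, and 39.6% of all) and in 241 in replicate 2 (89.3%, against 56.1%, and 67.2% of all). H3K27me1 covered more in 184 (68.1%, against 77.9%, and 74.6% of all). A total of 14 middle windows had no WT H3K9ac peak (5.19%, and 4.08% of all). In ddm1, 11 of these had at least 1 (4.07% of middle windows, and 2.97% of all), with a median over the 14 windows of 54.5 peaks and a highest of 110.

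**Figure D4:**
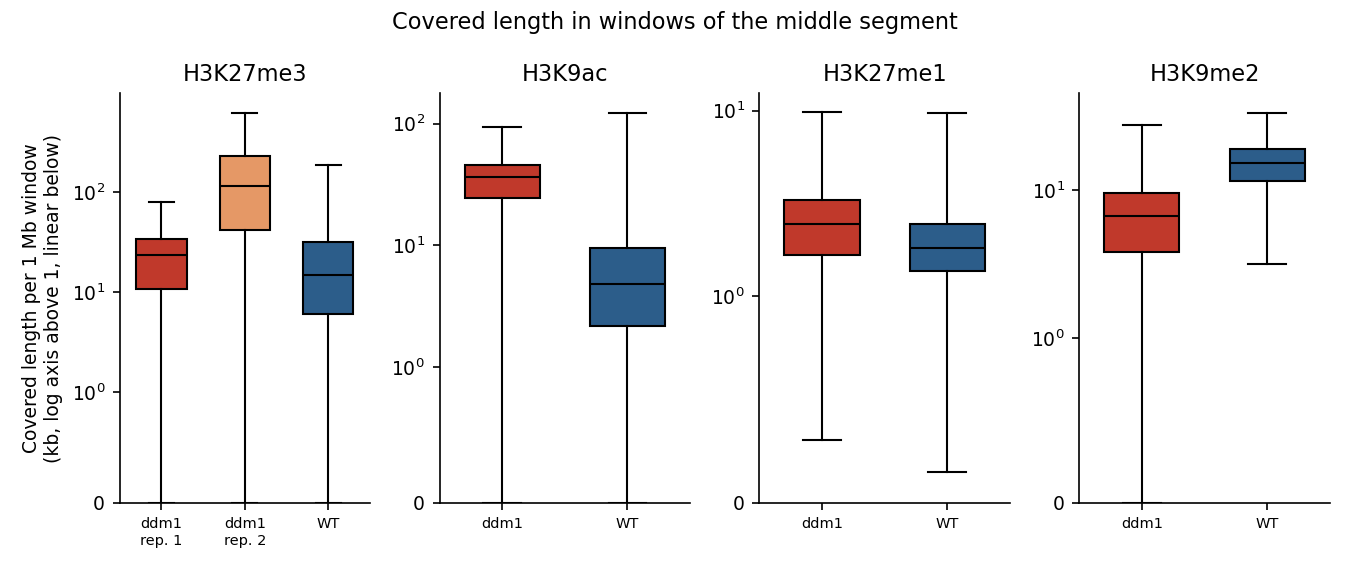
Length covered per 1 Mb window in the 270 windows of the middle segment, in kb (axis linear below 1 and logarithmic above); boxes span the quartiles, the line is the median and whiskers reach the lowest and highest window. The H3K9ac boxes of ddm1 (median 36.4 kb) and WT (4.81 kb) do not overlap, the H3K9me2 boxes are in the opposite order (6.72 and 15.5 kb), and the H3K27me3 box of ddm1 replicate 1 overlaps that of WT.

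Among the 12 chromosomes, chromosome 2 stood apart in WT. Its middle segment held 35.9% of its WT H3K27me3 peaks, the next being chromosome 6 with 17.7% and the median of the 12 being 12.1%. For WT H3K9ac it held 17.4%, the next being chromosome 11 with 8.63% and the median 5.91%. Both gaps exceeded counting error. Within the segment, 74.5% of these 856 WT H3K9ac peaks and 77.7% of the 1193 WT H3K27me3 peaks were in its distal part, beyond the midpoint of the chromosome. In ddm1 these shares were 54.8% for H3K9ac, and for H3K27me3 67.7% in replicate 1 and 60.2% in replicate 2.

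In peak shares, the genotype difference was smallest on chromosome 2 for the active and Polycomb marks. H3K27me3 peaks in its middle segment numbered 869 in replicate 1, 975 in replicate 2 and 1193 in WT, ratios of 0.728 and 0.817. It was the only chromosome where the mutant had fewer peaks. In covered length the replicates parted there, with 0.600 Mb in replicate 1, 2.42 Mb in replicate 2 and 1.34 Mb in WT. Replicate 1 also covered less than WT on chromosomes 1 and 6. The share of peaks on chromosome 2 differed by 1.63 points (-0.925 to 4.19) in replicate 1 and by -1.23 points (-3.62 to 1.17) in replicate 2. H3K9ac peaks numbered 1358 in ddm1 and 856 in WT, a ratio of 1.59, and the share was higher in ddm1 by 4.16 points (2.68 to 5.62). The other 11 chromosomes had H3K9ac ratios between 4.37 on chromosome 6 and 14.4 on chromosome 12, where ddm1 had 1688 peaks and WT had 117. For H3K27me3 the largest ratios were on chromosome 9, with 736 peaks in replicate 1, 1274 in replicate 2 and 147 in WT, ratios of 5.01 and 8.67. Chromosome 9 also had the lowest WT share of H3K27me3 in the middle, 5.36%.

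In H3K9ac, chromosome 2 also set the spread among the WT chromosomes. Middle-segment shares ran between 21.6% on chromosome 2 and 31.1% on chromosome 10 in ddm1 (median 26.8%), and between 4.00% on chromosome 7 and 17.4% on chromosome 2 in WT. Chromosome 2 was thus the highest in WT and the lowest in ddm1. On the other 11 the shares were 23.8% to 31.1% in ddm1 and 4.00% to 8.63% in WT, so without chromosome 2 the range in points was wider in ddm1. In density, the middle segments of ddm1 held 66.6 to 84.5 H3K9ac peaks per Mb and those of WT 4.99 to 46.6, or 4.99 to 17.7 without chromosome 2. Of neighbours in the ddm1 order, only chromosomes 7 and 2 differed beyond counting error.

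H3K9me2 also set chromosome 2 apart, most clearly in WT peaks found again. For H3K27me1, chromosome 2 had the largest gains, but with intervals that overlapped those of other chromosomes. H3K9me2 shares were lower in ddm1 on 11 of 12 chromosomes, with 10 intervals below 0, and chromosome 2 was the exception (48.6% in ddm1 and 46.8% in WT, a difference of 1.84 points with an interval of -4.29 to 7.96). The largest difference was on chromosome 6, with 26.5% in ddm1 and 43.1% in WT. The number of H3K9me2 peaks in the middle was lower in ddm1 on all 12, with ratios between 0.474 on chromosome 7 and 0.869 on chromosome 2. WT H3K9me2 peaks were found again at 24.6% on chromosome 2, and at 8.39% to 14.1% on the others. For H3K27me1 the share was lower in ddm1 on 9 chromosomes, with 6 intervals below 0, and the largest difference was on chromosome 3, with 34.5% in ddm1 and 46.7% in WT. On chromosome 2 the H3K27me1 share was 46.0% in ddm1 and 43.4% in WT, a difference of 2.62 points (-3.73 to 8.89), beside 2.46 points on chromosome 1 and 0.150 on chromosome 6. The H3K27me1 peak number was higher in ddm1 on all 12 chromosomes, by ratios of 1.17 on chromosome 10 to 1.79 (1.47 to 2.18) on chromosome 2. The next highest was chromosome 7 with 1.57 (1.30 to 1.89). WT H3K27me1 peaks were found again at 22.1% on chromosome 2 and at 22.9% on chromosome 9.

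**Figure D5:**
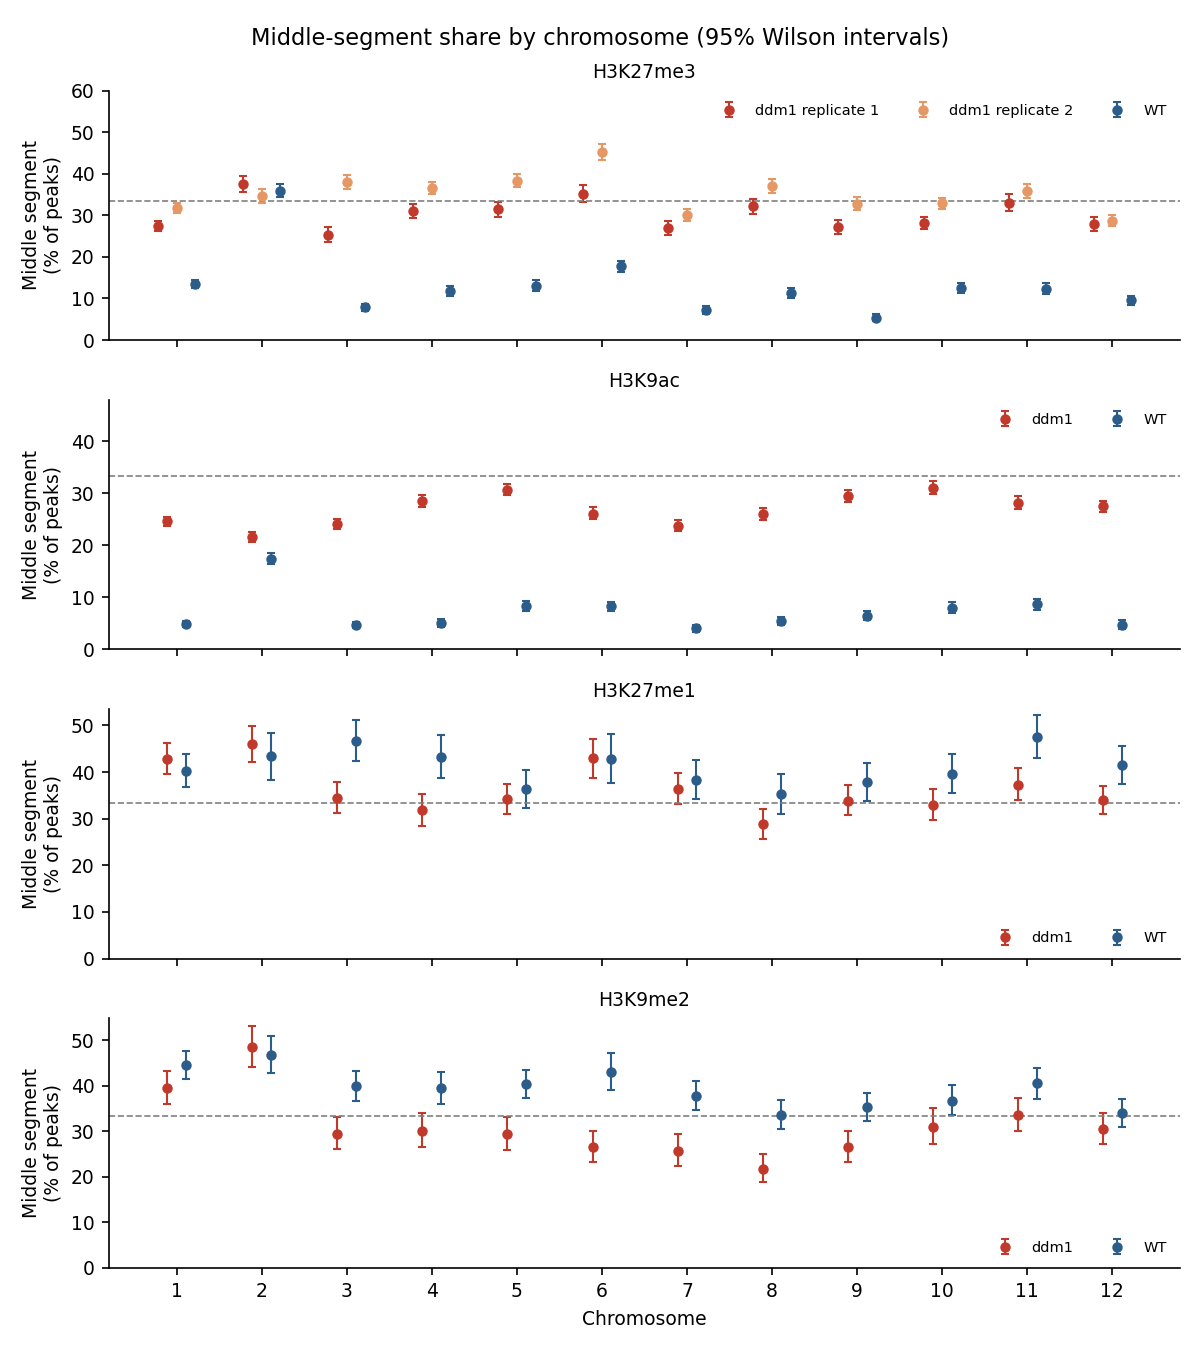
Share of each chromosome's peaks that lay in its middle segment, in percent, with 95% Wilson intervals, one panel a mark; points are single lists and the dashed line marks 33.3%. On chromosome 2 the WT points of H3K27me3 (35.9%) and H3K9ac (17.4%) sit close to the ddm1 points, on the other 11 they lie well below them, and the H3K9me2 point of ddm1 lies below WT on all but chromosome 2.

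Single windows and sites show the range behind these counts. Coordinates are those of the M82 assembly (V1.0). The window with the largest gain in H3K27me3 length, chr7:43000001-44000000, had 35.6 kb in replicate 1, 582 kb in replicate 2 and 12.8 kb in WT. It also had 96 H3K9ac peaks in ddm1 and 0 in WT, so both marks were higher in ddm1 in this megabase. The size of the H3K27me3 gain rested on replicate 2. The largest H3K9ac gain, chr12:46000001-47000000, was 70.8 kb in ddm1 and 1.74 kb in WT. The largest falls of both marks were on chromosome 2. H3K27me3 at chr2:33000001-34000000 covered 29.9 kb in replicate 1, 43.9 kb in replicate 2 and 140 kb in WT. H3K9ac at chr2:35000001-36000000 covered 93.1 kb in ddm1 and 122 kb in WT.

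The largest H3K9me2 fall, chr5:23000001-24000000, was to 3.35 kb in ddm1, against 33.4 kb in WT, and there H3K9ac covered 32.7 kb in ddm1 and 1.97 kb in WT. H3K9me2 covered more in ddm1 in 12 of the 270 windows, and the largest such gain was at chr11:20000001-21000000, with 27.8 kb of H3K9me2 in ddm1 and 7.86 kb in WT, in 36 peaks in ddm1 and 9 in WT. No H3K9ac or H3K27me3 peak of any list fell in it. Only 1 other middle window lacked both marks in every list, chr1:35000001-36000000, and there H3K9me2 covered 6.57 kb in ddm1 and 11.7 kb in WT. These windows without peaks were picked out after their values were seen. For H3K27me1, the largest gain was at chr12:23000001-24000000, with 9.04 kb in ddm1 and 2.60 kb in WT, and the largest fall at chr4:23000001-24000000, with 1.88 kb in ddm1 and 3.91 kb in WT.

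The longest new H3K9ac peak of the segment, chr5:37447519-37451620, spanned 4102 bp with a fold of 8.35, and no other list had a peak there. The longest WT H3K9ac peak not found in ddm1, chr9:24419622-24421623 (2002 bp, fold 7.36), carried ddm1 H3K27me3 over 998 bp in replicate 1 and 1818 bp in replicate 2, against 1255 bp of H3K27me3 in WT. The longest replicate 1 H3K27me3 peak outside WT peaks, chr10:42591867-42595138, spanned 3272 bp, was wholly covered by replicate 2 and shared 513 bp with ddm1 H3K9ac. The longest WT H3K27me3 peak absent from both replicates, chr6:33709672-33713824 (4153 bp), had no peak of any other list.

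At heterochromatin sites, the longest WT H3K9me2 peak missing in ddm1, chr10:34583618-34586911 (3294 bp), had no peak of any ddm1 list. The same held for the next 2 in length, on chromosomes 4 and 2. By contrast, the WT H3K9me2 peak at chr10:39353391-39355614 (2224 bp) had ddm1 H3K9ac over 1545 bp and H3K27me3 over 155 bp in replicate 1 and 703 bp in replicate 2. H3K9ac covered at least 50% of the length of 162 of the 3811 WT H3K9me2 sites (4.25%), so most of the 594 overlaps were partial. For WT H3K27me1, whose peaks are short, it was 281 of 2465 (11.4%). At this limit the middle differed from the outer segments by 0.288 points for H3K9me2 and -0.112 points for H3K27me1. An example is chr7:29496497-29497032, where the whole 536 bp lay in ddm1 H3K9ac. The longest ddm1 H3K9me2 peak outside WT H3K9me2, chr6:26871028-26873717 (2690 bp), shared 705 bp with WT H3K27me3. For H3K27me1, the longest new peak, chr2:34765303-34766058 (756 bp), had no other mark in either genotype, and the longest WT peak missing in ddm1, chr4:23734766-23735487 (722 bp), lay wholly in WT H3K9me2 and shared 103 bp with H3K27me3 of replicate 2.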

How the data were processed

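ChIP-seq peak lists of 9 libraries were used, 1 list per labelled sample. According to the methods and the submitters' processing notes, the authors trimmed reads with Trimmomatic (0.38), aligned them with Bowtie2 (2.3.5 in the notes, another version in the methods) to the M82 V1.0 assembly with 1 mismatch allowed, used SAMtools (1.9), and called peaks with MACS3 at a q of 0.05 with an extension of 150 bp, broad for H3K27me3. The H3K9me2 lists also had the broad layout. The methods report independent biological replicates of the ChIP-seq for each genotype. How these relate to the lists, any pooling of them and the control used are not given in the sources used here. The deposited fold enrichment is a ratio to the local background, the deposited p- and q-values are on a −log10 scale, and the deposited score is derived by the authors' caller from the q-value. In broad lists these are means over a region.

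From these lists were computed, in Python (3.11.15) with numpy (2.4.6), pandas (2.3.3) and scipy (1.17.1), peak numbers, merged covered length, and overlaps of at least 1 bp by segment, chromosome and 1 Mb window. Enrichment that the peak caller did not call is missing from these counts. The background level was solved from fold and −log10 p, with whole pileups for 100% of solved narrow peaks. Routines were tested on simulated data. For each mark, the rule for named regions took the 3 longest new and the 3 longest missing peaks, the windows of largest gain and fall (H3K27me3 by the mean of the replicates), and the longest WT H3K9me2 and H3K27me1 peaks covered over at least 50% by ddm1 H3K9ac; the longest of each are given. The segment, the lists and the rules were chosen with earlier results of these data known. No genome or annotation of this assembly was used here, so no sequence or gene is given.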

Additional observations from a re-analysis of the deposited data

Results flagged for a closer look

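Beyond the 12 chromosomes, on sequences left out of every comparison, the ddm1 H3K9ac list had 38 peaks and the WT H3K9ac list had 5. For H3K27me3 the numbers were 58 in ddm1 replicate 1, 0 in replicate 2 and 124 in WT, and the other lists had 0 there. It drew attention because it is a signal outside the main measurement that was higher than in WT. The difference was not tested.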

How the results depend on the processing

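For H3K27me3, values are means of the 2 ddm1 replicates, with replicates 1 and 2 in brackets where the mean moved. Over 103 alternatives to 20 results, 78 values stayed within the band set for each result. The band was the counting interval, the SD of the 2 replicates for H3K27me3, or a fixed factor for chromosome counts. Leaving out 1 replicate cannot move a mean beyond that SD, so those values stayed within it by construction. The share difference kept its direction in 24 of 24 alternatives and the peak ratio in 23 of 24. In 2 of the ratio alternatives, replicate 1 alone was at or just under the WT level. With the central 50% of each chromosome, the share differences were 26.5 points for H3K27me3 (23.4 and 29.6), 26.3 for H3K9ac, -7.60 for H3K27me1 and -10.4 for H3K9me2, the H3K9ac ratio was 5.08, the difference in H3K9me2 peaks found again was -8.18 points, and the H3K27me1 share was higher on 1 chromosome. At a q of 0.01 or lower, the share differences were 14.8 for H3K27me3 (11.0 and 18.5) and -13.8 for H3K9me2, the ratios 1.68 (0.998 and 2.36) and 0.363, and the H3K9me2 share was higher on 0 chromosomes. With lists of equal size, the H3K9ac difference was 14.5 and the ratios were 2.98 for H3K9ac, 0.805 for H3K9me2 and 0.891 for H3K27me1, whose direction reversed. By covered length, the share differences were 15.1 for H3K27me3 (above 0 in both replicates) and 15.8 for H3K9ac, and the ratios 3.85 for H3K27me3 (1.00 and 6.70), 4.48 for H3K9ac and 0.457 for H3K9me2. With the same shortest peak in both lists, the H3K9me2 difference was -10.3 and the ratio 0.302. Leaving out chromosome 2 gave 21.1 points and a ratio of 8.37 for H3K9ac. That alternative, and leaving out peaks over 10 kb, were chosen after seeing the data. Leaving out those peaks moved no mean beyond the SD of the 2 replicates. The causes of these moves were not tested.

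Leaving out either ddm1 H3K27me3 replicate gave share differences of 16.4 to 21.1 points, ratios of 2.01 to 3.32, differences in WT peaks found again of 7.65 to 18.6 points, 11 to 12 chromosomes with a higher share, and differences in overlap with WT sites of -1.60 to 0.110 points for H3K9me2 and -3.38 to -0.0161 for H3K27me1. No paired analysis was possible because only 1 group had numbered replicates. With 1 library in 7 of 8 groups and unknown depth, a difference between lists cannot be told apart from one between plants, immunoprecipitations or libraries.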

Other observations

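H3K27me1 peaks met H3K9me2 less often in the middle segment than outside it, in both genotypes. H3K9me2 overlapped 8.47% of H3K27me1 peaks of the middle segment in ddm1, against 12.4% in the outer segments (difference -3.96 points, -5.21 to -2.67), and 12.7% in WT, against 17.0% (difference -4.25 points, -6.03 to -2.43). H3K9me2 covered 0.715% of the middle and 0.855% of the outer segments in ddm1, and 1.57% and 1.26% in WT. Counted over H3K9me2 peaks the gap was smaller: H3K27me1 overlapped 11.3% of them in the middle in ddm1, against 12.8% outside it (difference -1.49 points, -3.05 to 0.146), and 7.61% in WT, against 8.75% (difference -1.14 points, -2.23 to -0.0149). New H3K27me1 peaks of ddm1 lay on a WT H3K9me2 peak at 11.7% in the middle and 11.6% outside it, and on WT H3K27me3 at 0.508% and 3.76%. H3K27me1 peaks overlapped H3K9ac of the same genotype at 4.15% in ddm1, where 138 of 3328 peaks of the middle did so, against 4.54% in the outer segments (difference -0.398 points, -1.24 to 0.489). In WT it was 0 of 2465, which allows a share of up to 0.122%. H3K9ac covered 3.55% of the middle segment in ddm1 and 0.793% in WT. For H3K9me2 the counts were 18 of 2262 in ddm1 (0.796%, against 0.647% in the outer segments) and 0 of 3811 in WT. No replicate of these lists was at hand to set the values against.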
